A study of Mus musculus with 6 samples.

Results

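The genes described here are 10 markers that have been used to enrich mammary stem cells or tumor-initiating cells: Cd24a, Thy1, Prom1, Cd44, Itgb3, Ly6a, Aldh1a1, Aldh1a3, Procr and Lgr5. They were picked by gene symbol as proposed markers. They are 10 of the 41388 Ensembl genes counted in the study, and 9 of them were among the 12192 genes expressed above the detection filter, which asked for a CPM value above 1 in 3 or more samples. CPM is the number of reads of a gene scaled to a fixed library total. Aldh1a1 was the marker that did not pass. Each CPM value below is given after TMM normalization, a scaling that corrects for differences in library composition. A gene was called changed at a Benjamini-Hochberg adjusted p below 0.1 in edgeR's exact test over all 12192 expressed genes, and every adjusted p in the text comes from that test unless another is named.

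RNA-seq was performed on cells sorted from primary mammary tumors of MMTV-PyMT mice. In these mice, strain FVB/N-TgN(MMTVPyVT)634Mul/J, the polyoma middle T oncogene is driven in mammary epithelium by the mouse mammary tumor virus promoter, and all 6 samples carried this transgene. Tumor-initiating cells (TICs, 3 samples) were sorted by the study as CD24+CD90+ cells after removal of CD45+ leukocytes and dead cells, and the comparison group (3 samples) was the non-CD24+CD90+ tumor cells, CD45- cells that lacked either or both of the markers. The study's methods and its deposited design text differ on this second group, which the latter names as CD24-CD90- cells. The study describes these experiments as done on mice aged 12 weeks. Per its methods, each sample was a pool from 4 cell sorts, and 120 ng of total RNA went into each library. Neither group received a treatment. Its Results describe 4 mice pooled per replicate, and a supplementary legend on both fractions names 12 mice in all. The sources used here do not state outright whether both sorted fractions came from the same mice. No label ties a TIC sample to a comparison sample. No cultured line or clone is involved. Both gates remove leukocytes; the TIC gate also asks for CD24, which selects against cells without it, and neither names a marker that directly removes fibroblasts, endothelial cells or pericytes.

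Libraries held 6781239 to 9100552 counted reads, so that 3 counts corresponded to 0.330 to 0.442 CPM. TIC replicate 3 lay farthest from the other samples, with a mean root mean square difference of 2.14 on the log2 scale against 1.74 to 1.95 for the other 5. In bulk RNA, fewer cells of a type and less RNA per cell cannot be told apart, and this holds for every difference below. The p-values measure the spread between pooled samples. Permuting the 3 and 3 samples exactly gives a two-sided p of 0.1 at best for any single gene, so the fit over all genes is used.

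CD24 is a small, heavily glycosylated surface protein of luminal and, at a lower level, basal mammary epithelium. CD90 (Thy1) is a surface protein anchored in the membrane by glycosylphosphatidylinositol, carried by T cells, fibroblasts, pericytes and some basal mammary cells. Stem cell markers of the mammary gland are mostly surface proteins that were selected because sorted cells carrying them could rebuild a gland or seed a tumor, and several of them are also present on stromal, endothelial or blood cells.

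Among the 9 expressed markers, 1 was called higher in TICs (Ly6a) and 1 was called lower (Prom1), and the other 7 did not pass the threshold. Over all expressed genes, 1.36% were called higher and 0.189% were called lower. In 3 markers (Ly6a, Procr and Aldh1a3) every TIC sample lay above every sample of the comparison group, an order found in 7.69% of expressed genes. In 2 markers (Prom1 and Cd44) every TIC sample lay below, an order found in 7.55% of expressed genes. The values of Cd24a, Thy1, Itgb3 and Lgr5 overlapped between the groups. The markers differed in direction, with 4 positive and 5 negative log2 fold changes and a median of -0.34, beside -0.01 over all expressed genes.

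**Figure D1:**
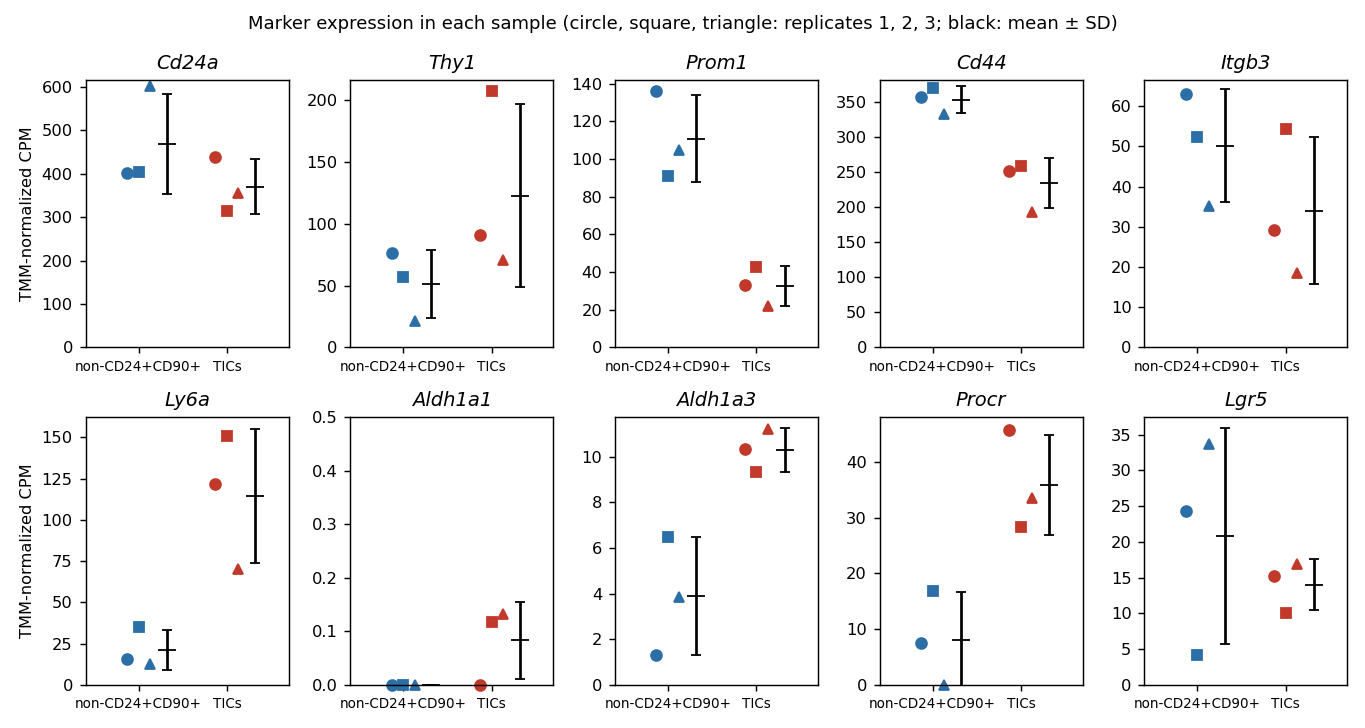
Expression of each of the 10 markers in TMM-normalized CPM (y axis, each panel on its own linear scale from 0) in the 3 non-CD24+CD90+ tumor cell samples (blue) and the 3 TIC samples (red), with the mean and SD of each group in black. The TIC samples lie above the comparison samples for Ly6a, Aldh1a3 and Procr, below them for Prom1 and Cd44, and among them for Cd24a, Thy1, Itgb3 and Lgr5.

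The most shared marker sequence was that of Ly6a, the marker with the clearest rise, and such sharing bears on how its reads were assigned. Of its 1297 distinct 50-base stretches in GENCODE M21 transcripts, 246 (19.0%) also occurred in another gene, 195 of them in Ly6c1. The coding sequences of Ly6a and Ly6c1, both on chromosome 15, were identical at 301 of 396 aligned bases (76.0%). The first 120 coding bases of each are printed 5′ to 3′, with capitals at the 8 positions where they differ. Within these 120 bases the longest identical run was 45 bases, shorter than the 50-base stretches counted above. Those shared stretches thus lie at least in part outside the printed bases.
Ly6a: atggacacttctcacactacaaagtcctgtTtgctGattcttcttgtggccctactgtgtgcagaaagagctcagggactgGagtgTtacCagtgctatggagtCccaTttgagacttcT
Ly6c1: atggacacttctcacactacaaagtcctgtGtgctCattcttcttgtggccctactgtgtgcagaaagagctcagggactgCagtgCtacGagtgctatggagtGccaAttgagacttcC
The authors removed reads that mapped to more than a single place before counting. A read lying wholly in a stretch shared with another place in the genome was thus dropped, and reads that cover a difference were kept. Stretches shared with other genes made up 5.10% of the 50-base stretches of Prom1, 3.06% of Aldh1a1 and 2.75% of Cd24a. They made up at most 1.15% of each of the other 6 markers. For Prom1, 314 of the 385 shared stretches were those of Gm16401, annotated at the same place on the opposite strand. Reads from such stretches can map to a single place, so 5.10% is not the share of Prom1 that the filter removed.

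The sorting markers were examined at the mRNA level. By the study's methods the comparison group can hold cells with CD24 alone or CD90 alone. On that description neither gene need be higher in TICs, whereas the deposited design text names cells without either marker. As these descriptions differ, the values do not test the gates. Cd24a (ENSMUSG00000047139, GRCm38 chromosome 10, 43578284 to 43584265, plus strand) encodes the CD24 protein used for sorting. It had 439.7, 315 and 356 CPM in TICs and 402, 404.5 and 602 CPM in the comparison group. The groups overlapped, and the highest value belonged to replicate 3 of the comparison group. Mean expression was 370.2 ± 63.6 CPM in TICs and 469.5 ± 115 CPM in the other cells (SD, n = 3). The log2 fold change was -0.34 (standard error 0.30, 95% interval -0.93 to 0.24, adjusted p = 0.985). TICs thus had no detectably higher Cd24a mRNA level than the comparison group. A rise of more than 0.24 on the log2 scale lay outside the interval, which takes the fitted spread between samples as known. Without replicate 3 of the comparison group the difference was -0.12. Cd24a was the most abundant of the 10 markers, and its mean level per kilobase of exon lay above that of 97.4% of expressed genes.

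Thy1 (ENSMUSG00000032011, chromosome 9, 44043384 to 44048579, plus strand) encodes CD90. TIC samples had 90.7, 207 and 70.3 CPM, and the other samples had 75.9, 56.7 and 21.6 CPM. TIC replicate 2 carried the highest level, while TIC replicate 3 lay just below replicate 1 of the comparison group. Mean expression was 123 ± 73.7 CPM in TICs and 51.4 ± 27.5 CPM in the other cells, a log2 fold change of 1.25 (standard error 0.50, interval 0.28 to 2.23) that did not pass the threshold (unadjusted p = 0.0138, adjusted p = 0.35, edgeR exact test). It was 0.65 without TIC replicate 2. CD90 is also a T cell protein. Of 7 T cell genes, Cd3e, Cd3d and Cd4 had no count in any sample. Cd8a, Cd3g and Lck had 61, 37 and 22 counts in TIC replicate 1 and no count in the other TIC samples. In the comparison group, Cd3g had 11 and Cd2 had 10 counts in replicate 3, and Lck had 12 counts in replicate 2. The summed expression of the 7 genes was 0 to 13.2 CPM in TICs and 0 to 3.004 CPM in the other cells. Whether T cells had a part in the Thy1 values was not tested. Ptprc, which encodes the CD45 protein used to remove leukocytes, had 33 counts in replicate 1 of the comparison group and 0 counts in the other 5 libraries.

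Prom1 (ENSMUSG00000029086, chromosome 5, 43993620 to 44102032, minus strand) encodes prominin-1 or CD133, a membrane glycoprotein of cell protrusions that is expressed in luminal mammary epithelium and has been used as a marker of tumor-initiating cells in several carcinomas. The 3 TIC samples had 33.0, 42.8 and 21.9 CPM. The comparison samples had 136, 91.1 and 105 CPM. The groups were well apart, with the highest TIC value below the lowest of the other group by more than the range within TICs. Prom1 was 3.40-fold lower in TICs (log2 fold change -1.77, standard error 0.40, interval -2.55 to -0.98, adjusted p = 0.00621, edgeR exact test). The call was lost without replicate 1 of the comparison group (log2 fold change -1.58, adjusted p = 0.149) and was kept when any other sample was left out. A gene annotated on the opposite strand across the first part of Prom1, Gm16401, had no count in any sample. Because the strand setting of the read counting is not given, this does not show how reads from the overlap were counted.

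Prom2, the paralog of Prom1, had 10.6, 23.3 and 35.5 CPM in TICs and 45.0, 50.4 and 68.7 CPM in the other cells. Its TIC samples also lay below all others, but the difference (log2 fold change -1.24, standard error 0.56) did not pass the threshold (adjusted p = 0.508, edgeR exact test). Of 6 listed relatives and ligands of prominin, CD24 and CD90, 3 were expressed and none was called (0 higher, 0 lower). Selp, which encodes P-selectin, a ligand of CD24, was the second in abundance, with 0.433 ± 0.656 CPM in TICs and 6.2 ± 5.68 CPM in the other cells.

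Cd44 (ENSMUSG00000005087, chromosome 2, 102811141 to 102901665, minus strand) encodes the main hyaluronan receptor. Expression was 251, 258 and 193 CPM in TICs and 357, 369.6 and 332 CPM in the other cells. Every TIC sample lay below every comparison sample. The log2 fold change of -0.59 (standard error 0.28, interval -1.15 to -0.037) did not pass the threshold (unadjusted p = 0.0376, adjusted p = 0.564, edgeR exact test). Counts per gene do not separate the standard and variant splice forms of Cd44, which were not analysed here.

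The 14 listed CD44 ligands, cytoskeletal partners and splicing factors held 12 expressed genes. Of these 12, 1 was called higher (all expressed genes: 1.36%) and 0 were called lower (all expressed genes: 0.189%). The gene called was Cd74, the invariant chain of MHC class II, which also pairs with CD44 as the receptor for the cytokine MIF. It had 164, 139 and 174 CPM in TICs against 45.7, 51.5 and 87.5 CPM in the other cells (log2 fold change 1.37, standard error 0.35, adjusted p = 0.0206), and it was not called without replicate 1 (adjusted p = 0.236) or replicate 2 (adjusted p = 0.256) of the comparison group. Among the most abundant members, Spp1, which encodes the CD44 ligand osteopontin, had 1020 ± 111 CPM in TICs and 839 ± 58.0 CPM in the other cells, and Rdx, which encodes the membrane-cytoskeleton linker radixin, had 832 ± 262 and 658 ± 94.8 CPM. Neither passed the threshold.

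Itgb3 (ENSMUSG00000020689, chromosome 11, 104608000 to 104670476, plus strand) encodes integrin β3, or CD61, a subunit of receptors for RGD-containing matrix proteins and a marker of mammary luminal progenitors. TICs had 29.1, 54.3 and 18.6 CPM, and the other cells had 62.9, 52.3 and 35.2 CPM. The groups overlapped through TIC replicate 2. The log2 fold change was -0.56 (standard error 0.54, interval -1.61 to 0.50, adjusted p = 0.999), with values of -1.07 without TIC replicate 2 and -0.24 without TIC replicate 3.

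Of 12 genes for the partner subunit of integrin β3, its ligands and its activators, 10 were expressed. Of these 10, 1 was called higher (all expressed genes: 1.36%) and 0 were called lower (all expressed genes: 0.189%). The gene that rose was Fn1, which encodes the ligand fibronectin. Its expression was 2186, 2752 and 1759 CPM in TICs and 620.2, 1023 and 706 CPM in the other cells (log2 fold change 1.51, standard error 0.30, adjusted p = 0.000662). Itgav, the αv subunit that pairs with β3, had 98.0 ± 29.4 CPM in TICs and 113 ± 15.9 CPM in the other cells. Mfge8, a ligand secreted by mammary epithelium, had 1693 ± 227 and 2168 ± 288 CPM. Neither of these passed the threshold. Ilk was listed at 0 in all 6 samples, and whether that reflects expression or the counting of reads was not tested.

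Ly6a (ENSMUSG00000075602, chromosome 15, 74994877 to 74998031, minus strand) encodes stem cell antigen-1 (Sca-1), a glycosylphosphatidylinositol-anchored surface protein of hematopoietic stem cells that is also carried by some luminal mammary cells, endothelial cells and fibroblasts. TIC samples had 122, 151 and 70.3 CPM. The comparison samples had 15.5, 35.0 and 12.6 CPM. The lowest TIC sample, replicate 3, was still above the highest of the other group. Ly6a was 5.43-fold higher in TICs (log2 fold change 2.44, standard error 0.48, interval 1.503 to 3.38, adjusted p = 0.000785, edgeR exact test). Its fitted difference was the largest in size among the 9 markers tested, although the interval of Procr reached 4.21 and Procr was ahead without replicate 2 of the comparison group (3.27 against 3.03). Ly6a was called in all 14 alternatives tried, with log2 fold changes of 2.18 to 3.03.

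Of 14 other Ly6 family genes, 6 were expressed. Of these 6, 1 was called higher (all expressed genes: 1.36%) and 0 were called lower (all expressed genes: 0.189%). The gene called was Ly6c1, whose sequence is printed above, a surface protein known from monocytes, T cells and endothelial cells. It had 317, 495 and 824 counts in TICs and 85, 118 and 15 counts in the other cells, which correspond to 34.8, 57.7 and 109 CPM and to 12.4, 13.4 and 2.15 CPM. Ly6c1 was 7.18-fold higher in TICs (log2 fold change 2.85, standard error 0.67, adjusted p = 0.0143, edgeR exact test), and it was not called without TIC replicate 3 (adjusted p = 0.197).

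The order of the TIC samples differed between these neighbours. Ly6a was lowest in TIC replicate 3, the sample in which Ly6c1 was highest. The most abundant family members, Ly6e with 576 ± 70.5 and 646 ± 92.9 CPM and Cd59a with 256 ± 82.7 and 196 ± 12.8 CPM in TICs and the other cells, did not pass the threshold. Ly6c2, Ly6g, Ly6i, Lypd1, Lypd6 and Slurp1 had no count in any sample.

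Procr (ENSMUSG00000027611, chromosome 2, 155751117 to 155755471, plus strand) encodes the endothelial protein C receptor, which presents protein C to thrombin and thrombomodulin on endothelium and also marks a basal multipotent cell of the mammary gland. TICs had 45.7, 28.3 and 33.5 CPM, and the other cells had 7.44, 16.9 and 0 CPM. Every TIC sample lay above every other sample. The log2 fold change of 2.14 had a wide error (standard error 1.055, interval 0.071 to 4.21), and it did not pass the threshold (unadjusted p = 0.0589, adjusted p = 0.676, edgeR exact test). Leaving out single samples gave 1.56 without replicate 3 and 3.27 without replicate 2 of the comparison group.

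The absent counts in replicate 3 of the comparison group stood beside 254 to 416 counts in TICs and 51 and 149 counts in the other 2 comparison libraries. From those 2 libraries 85.1 counts were predicted there. Of the 2221 genes predicted within a factor of 1.5 of this number, 137 (6.17%) had no count in that library, so that single absent values at this level were not restricted to Procr.

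Procr acts with other genes of the protein C pathway. Of 7 genes of the protein C pathway, 5 were expressed. Of these 5, 2 were called higher (all expressed genes: 1.36%) and 0 were called lower (all expressed genes: 0.189%). Thbd, which encodes thrombomodulin, had 68.3, 121 and 138 CPM in TICs and 24.5, 26.9 and 13.7 CPM in the other cells, a 5.02-fold higher mean level (log2 fold change 2.33, standard error 0.44, adjusted p = 0.000466). F2r, which encodes the thrombin receptor PAR1 that Procr-bound protein C can cleave, had 66.7, 82.5 and 116 CPM in TICs and 12.6, 12.7 and 26.8 CPM in the other cells, and was 5.09-fold higher (log2 fold change 2.35, standard error 0.48, adjusted p = 0.0013). In both genes the lowest TIC sample lay more than 2-fold above the highest of the other group, and both were called in all 14 alternatives. F3, or tissue factor, had 73.4 ± 25.4 and 33.7 ± 17.6 CPM, with overlapping groups (adjusted p = 0.477, edgeR exact test). Pros1, the protein C cofactor protein S, had 50.5 ± 17.9 and 33.4 ± 6.15 CPM, and F2rl1, the related receptor PAR2, had 4.29 ± 6.504 and 10.47 ± 11.3 CPM, neither past the threshold.

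**Figure D2:**
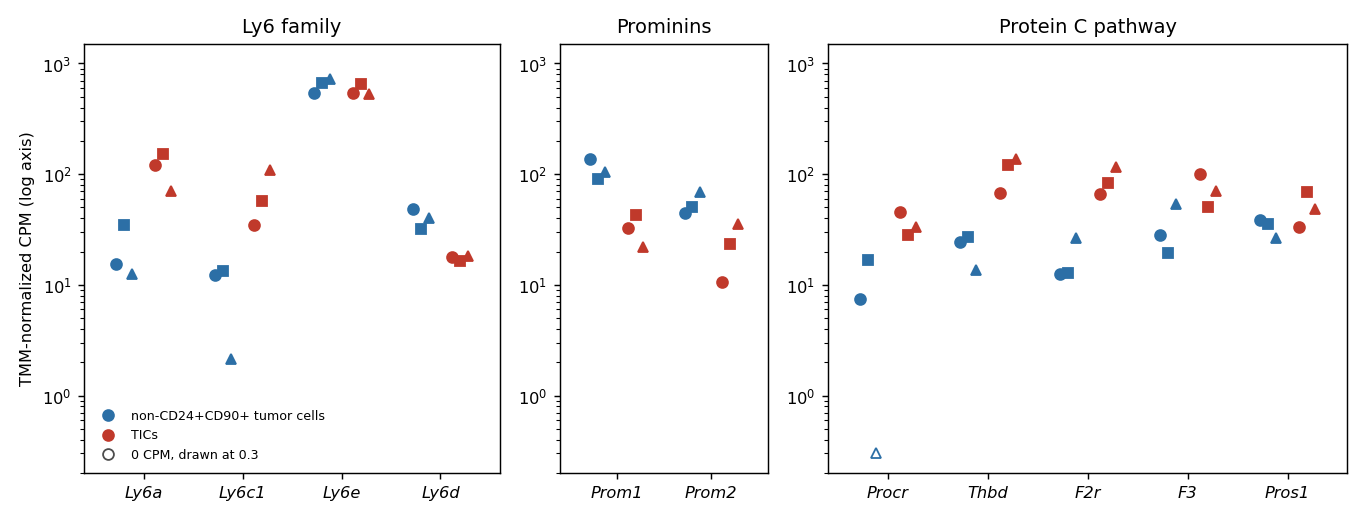
Expression of Ly6 family genes, prominins and protein C pathway genes in TMM-normalized CPM on a log axis, in each non-CD24+CD90+ tumor cell sample (blue) and TIC sample (red), with circle, square and triangle for replicates 1 to 3 and an open symbol for a value of 0. TIC samples lie above the comparison samples for Ly6a, Ly6c1, Procr, Thbd and F2r, and below them for Prom1, Prom2 and Ly6d.

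Lgr5 (ENSMUSG00000020140, chromosome 10, 115450311 to 115587780, minus strand) encodes a receptor for R-spondins that amplifies Wnt signals and marks stem cells of the intestine and a subset of basal mammary cells. It had 15.2, 10.03 and 16.9 CPM in TICs and 24.4, 4.198 and 33.8 CPM in the other cells. The 3 TIC samples fell inside the range of the comparison group. The log2 fold change was -0.57 (standard error 0.90, interval -2.32 to 1.19, adjusted p = 1), and it was -0.02 without replicate 3 and -1.05 without replicate 2 of the comparison group.

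Of 12 LGR and R-spondin genes, 8 were expressed. Of these 8, 2 were called higher (all expressed genes: 1.36%) and 0 were called lower (all expressed genes: 0.189%). Rspo1, a ligand of Lgr5, had 169, 17 and 181 counts in TICs and 0, 1 and 3 counts in the other cells (adjusted p = 0.0922, edgeR exact test). Its comparison samples were all under 1 CPM, so it passed the filter only through the TIC samples, and its count among the genes called is no independent support. It was called in 3 of the 10 alternatives in which it could be tested, and not without any single sample of the comparison group (adjusted p = 0.199 to 0.439). Smoc2, a secreted calcium-binding protein of the matrix that belongs to the intestinal Lgr5 cell signature, had 141, 91.9 and 209 CPM in TICs and 54.4, 64.7 and 64.8 CPM in the other cells (log2 fold change 1.26, standard error 0.37, adjusted p = 0.0648). It was called in 7 of 14 alternatives and not without any single sample of the comparison group or without TIC replicate 3 (adjusted p = 0.248 to 0.373). The related receptor Lgr4 had 52.1 ± 7.06 CPM in TICs and 68.8 ± 15.1 CPM in the other cells and did not pass the threshold.

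The aldehyde dehydrogenases Aldh1a1 and Aldh1a3 oxidise retinaldehyde to retinoic acid and are the main sources of the activity measured when cells are sorted by their aldehyde dehydrogenase level. Aldh1a1 (ENSMUSG00000053279, chromosome 19, 20492715 to 20643465, plus strand) had 0, 1 and 1 counts in TICs and 0 counts in each of the other 3 libraries. It was below the limit of 3 counts in every library, so no fold change was given. Its closest relative, Aldh1a7, which is identical at 1380 of 1506 aligned coding bases (91.6%), had 7 counts in replicate 3 of the comparison group and 0 counts elsewhere.

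Aldh1a3 (ENSMUSG00000015134, chromosome 7, 66390890 to 66427517, minus strand) had 94, 80 and 85 counts in TICs and 9, 57 and 27 counts in the other cells, or 10.3, 9.33 and 11.2 CPM and 1.31, 6.47 and 3.86 CPM. The TIC samples were close to each other and all above the other group. The log2 fold change of 1.401 (standard error 1.31, interval -1.17 to 3.97, adjusted p = 1) nevertheless did not pass the threshold. Among 27 other aldehyde dehydrogenases and retinoid genes, 23 were expressed, with 0 called higher and 0 called lower and a median log2 fold change of -0.22. The most abundant were the mitochondrial enzyme gene Aldh2, with 424 ± 22.1 CPM in TICs and 565 ± 97.8 CPM in the other cells, and the retinoid X receptor gene Rxra, with 92.2 ± 12.7 and 137 ± 19.1 CPM.

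**Figure D3:**
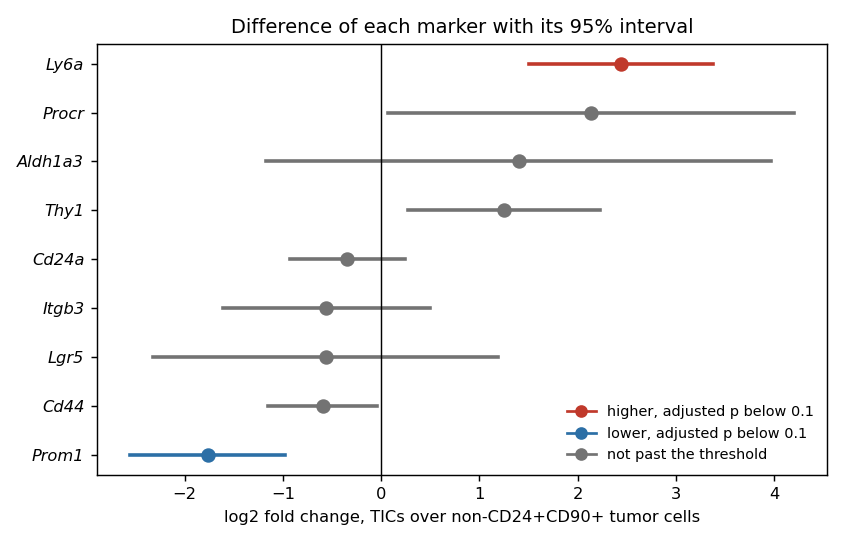
Log2 fold change of TICs over non-CD24+CD90+ tumor cells for the 9 expressed markers (points), with the 95% interval as a bar, ordered by size. Ly6a (red) was called higher and Prom1 (blue) was called lower, while the grey markers did not pass the threshold and the intervals of Procr and Aldh1a3 span more than 4 log2 units.

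The samples did not keep the same order from marker to marker. TIC replicate 3 was the lowest of all 6 samples for Prom1, Cd44 and Itgb3 and the highest for Aldh1a3, while TIC replicate 2 was the highest for Thy1 and Ly6a. Replicate 3 of the comparison group was the highest for Cd24a and Lgr5 and the lowest for Thy1, Ly6a and Procr. The summed expression of the 10 markers was 1037, 1075 and 792.5 CPM in TICs and 1083, 1037 and 1146 CPM in the other cells, with overlapping groups.

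**Figure D4:**
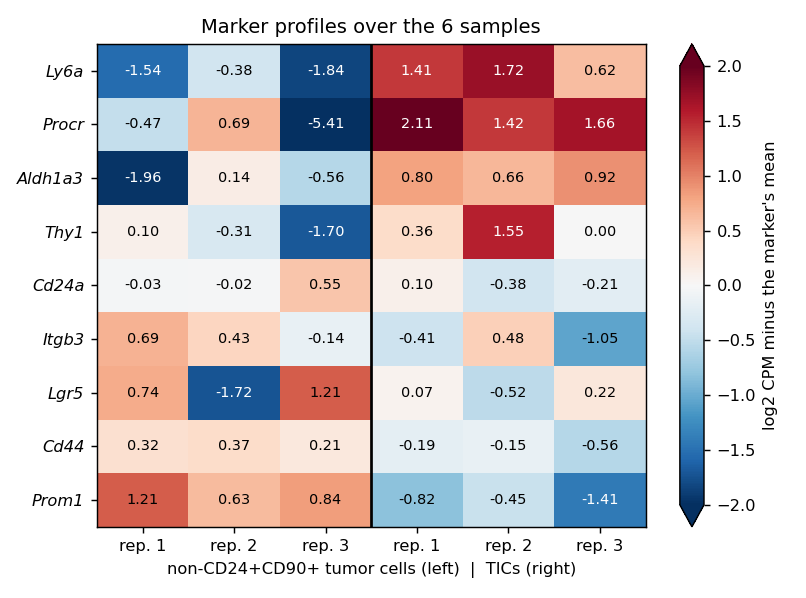
Log2 CPM of each expressed marker minus the mean of that marker over the 6 samples (colour and number; the colour scale ends at 2 in either direction), with the 3 non-CD24+CD90+ tumor cell samples left of the line and the 3 TIC samples right of it. Ly6a, Procr and Aldh1a3 are higher on the right and Prom1 and Cd44 on the left, and the lowest single value is -5.41 for Procr in replicate 3 of the comparison group.

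Per kilobase of exon, the order of the markers by level differed between the groups. In TICs, the mean level was 144 CPM per kilobase for Cd24a, 94.9 for Ly6a, 41.0 for Thy1, 34.6 for Cd44, 17.7 for Procr, 5.76 for Itgb3, 4.54 for Prom1, 2.23 for Aldh1a3 and 1.37 for Lgr5. The neighbours from Cd24a to Cd44, and Itgb3 and Prom1, overlapped in their ranges over the 3 samples. In the other cells the mean level was 182 CPM per kilobase for Cd24a, 52.1 for Cd44, 17.4 for Ly6a, 17.2 for Thy1, 15.4 for Prom1, 8.50 for Itgb3, 4 for Procr, 2.02 for Lgr5 and 0.841 for Aldh1a3. Here Cd24a and Cd44 stood clear of their neighbours, while Ly6a, Thy1 and Prom1 overlapped in turn, as did Itgb3, Procr, Lgr5 and Aldh1a3. Ly6a took the second place in TICs and the third in the other cells, and Prom1 moved from the fifth place in the other cells to the seventh in TICs.

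A further 31 proposed mammary stem, progenitor and tumor-initiating cell markers were examined. Of these, 28 were expressed, 0 were called higher and 0 were called lower, and the median log2 fold change was -0.10. In 1 of the 28 every TIC sample lay above the other group, an order found in 7.69% of all expressed genes. In 3 every TIC sample lay below, an order found in 7.55% of all expressed genes. The most abundant were Epcam, an epithelial adhesion molecule with 1181 ± 69.6 CPM in TICs and 1494 ± 84.3 CPM in the other cells (log2 fold change -0.34, standard error 0.26, adjusted p = 0.955, edgeR exact test), and Sox9, a transcription factor of luminal progenitors, with 945.1 ± 57.2 and 1038 ± 121 CPM.

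Markers of the other cell types that a CD45- gate can hold were examined in the same samples. The summed expression of 10 fibroblast genes was 7577 to 10990 CPM in TICs and 2839 to 3222 CPM in the other cells, a 3.12-fold higher mean. Of the 9 that were expressed, 6 were called higher, beside 1.36% of all expressed genes. In 8 of the 9 every TIC sample lay above the other group, an order found in 7.69% of all expressed genes. The 2 most abundant were the collagen genes Col1a1, with 4718 ± 981 and 1622 ± 223 CPM, and Col1a2, with 2666 ± 241 and 662 ± 34.1 CPM, both called higher. Of the 6 genes, Dcn was not called without replicate 2 or replicate 3 of the comparison group, and Dpt was not called without replicate 3. Dcn was also not called in the quasi-likelihood test (adjusted p = 0.105). Summed pericyte genes were 891 to 1504 CPM in TICs and 453 to 527 CPM in the other cells. Of 8 genes, 1 was called higher (Rgs5, 665 ± 136 and 243 ± 0.34 CPM), while Pdgfrb had 239 and 136 CPM and was not called. In 4 of the 8 every TIC sample lay above the other group. Summed endothelial genes were 215 to 717 CPM in TICs and 160 to 186 CPM in the other cells, and 0 of 10 were called in either direction. All 10 log2 fold changes were positive, with a median of 1.16, and in 1 gene every TIC sample lay above the other group. The most abundant were Emcn (86.1 and 38.2 CPM) and Kdr (78.4 and 25.9 CPM).

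Luminal epithelial genes went the other way in their sum. It was 3857 to 4543 CPM in TICs and 5760 to 6202 CPM in the other cells, with 0 genes called. In 4 of 10 genes every TIC sample lay below the other group, an order found in 7.55% of all expressed genes. Krt18 had 1645 ± 153 and 2657 ± 161 CPM, and Epcam is given above. Summed basal or myoepithelial genes, 626 to 746 CPM in TICs and 603 to 1301 CPM in the other cells, overlapped, with 0 of 8 called. Krt14 had 279 and 488 CPM and Acta2 had 156 and 158 CPM. The epithelial markers Krt18, Epcam and Krt14 were detected in all 6 samples.

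Among blood and fat cells, no T cell gene of 7 was expressed, and 8 other leukocyte genes summed to 4.09 to 28.1 CPM in TICs and 12.4 to 23.8 CPM in the other cells, with 0 of the 2 expressed genes, Cd68 and Csf1r, called. Of 5 adipocyte genes, only Fabp4, which endothelial cells also express, passed the filter and was called higher (637 ± 531 and 94.9 ± 40.2 CPM), while Adipoq, Plin1 and Lep had no count. The erythroid genes Hba-a1 and Hbb-bs had 67.7 and 29.7 CPM and 16.6 and 15.7 CPM and were not called. Whether the stromal genes had a part in the values of Thy1, Ly6a, Procr and their partners was not tested, nor was the part of luminal genes in Prom1.

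**Figure D5:**
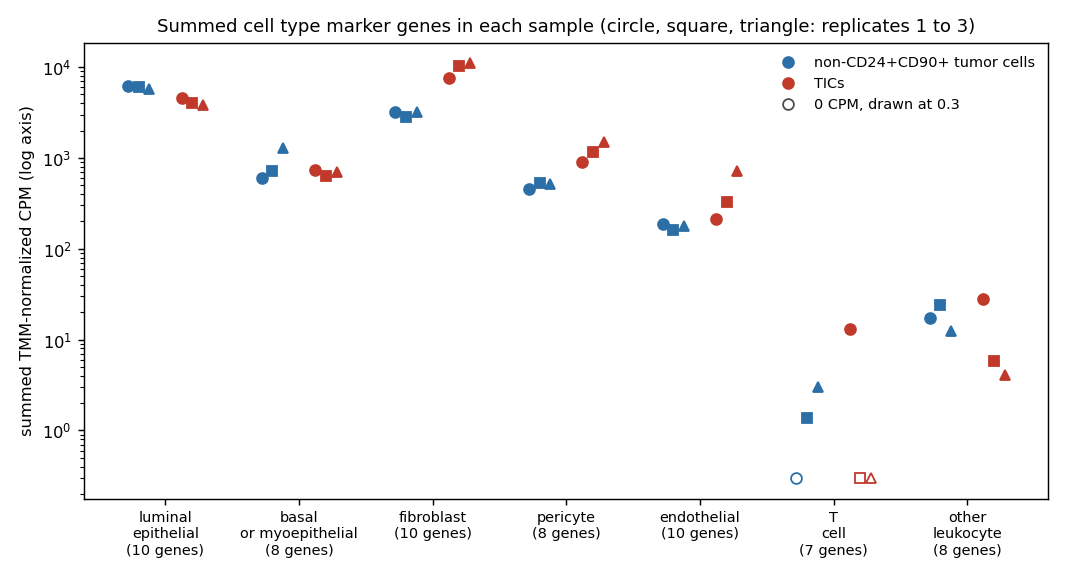
Summed TMM-normalized CPM (log axis) of the marker genes of 7 cell types in each non-CD24+CD90+ tumor cell sample (blue) and TIC sample (red), with open symbols for a sum of 0. Fibroblast, pericyte and endothelial sums are higher in all 3 TIC samples, luminal sums are lower, and T cell sums are at or below 13.2 CPM in every sample.

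As a description of likeness, the profile of each sorting marker and of each called marker over the 6 samples was compared with those of 50 expressed cell type genes, by the root mean square difference of log2 CPM after subtraction of each gene's mean. For Cd24a the most similar were the luminal genes Epcam (0.205), Cldn3 (0.254) and Krt8 (0.276), against a median of 0.973 over the 50 genes. For Prom1 they were also luminal, Krt18 (0.634), Cdh1 (0.660) and Krt8 (0.688), with a median of 1.62. Ly6a was closest to the fibroblast genes Col1a2 (0.580), Dpt (0.588) and Col3a1 (0.674), with a median of 1.42. Thy1 had neighbours from several classes, the fibroblast gene Dpt (0.606), the endothelial gene Pecam1 (0.627) and the pericyte gene Cspg4 (0.683), with a median of 1.15. The 6 samples share their group structure, so genes that differ between the groups in the same direction come out as similar.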

How the data were processed

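The authors sequenced RNA of 6 samples, 3 of them TICs. Reads were trimmed with Trimmomatic 0.32 and aligned to GRCm38 with STAR 2.4.0, non-uniquely mapped reads were removed with SAMtools 1.1, and reads per gene were counted with HTSeq; the HTSeq version, its strand setting and the annotation release are not given in the sources used here. The deposited values are raw counts per Ensembl gene, with no normalization. From these counts, genes whose CPM exceeded 1 in 3 or more libraries were retained, and TMM factors, common and tagwise dispersions and the exactTest of edgeR 4.0.16 (R 4.3.3) were applied, with Benjamini-Hochberg adjustment and a threshold of 0.1. The CPM cutoff was set here because the study does not give its value. Samples were grouped by GEO's descriptions; replicate numbers follow accession order and were not used to pair samples. Standard errors and the 95% intervals derive from the information of the negative binomial model at the tagwise dispersion and take that dispersion as known. Common dispersion was 0.678 (biological coefficient of variation 0.823).

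Gene symbols, exon lengths and sequences came from GENCODE M21 on GRCm38, in which 40254 of 41388 genes had a symbol. The markers, gene lists and tests were chosen with earlier results of these data known. Named are all 10 markers, every called gene and the 2 most abundant genes of each pathway list, the 2 most abundant genes of each cell type list, and the 3 cell type genes most similar to Cd24a, Thy1 and each called marker; genes given beside these (such as Ptprc, Itgav, Pros1, F2rl1, Aldh1a7, Ly6d and genes without counts) were chosen after their values were seen. Log2 CPM used a prior count of 2. The predicted count of Procr was its mean CPM in the other libraries of its group, scaled to the library. As alternatives, edgeR's quasi-likelihood test, DESeq2 1.42.0, RLE size factors, library size alone, no filter, filters of 0.5 CPM and of 10 counts in every sample, trended dispersions, a threshold of 0.05, and leaving out each sample were run. The scripts were tested on simulated data. Intervals and limits of 3 counts cover counting error, or the model, only.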

Additional observations from a re-analysis of the deposited data

How the results depend on the processing

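Ly6a was called higher and Prom1 lower under every alternative tried, except that leaving out replicate 1 of the non-CD24+CD90+ tumor cells left Ly6a as the only marker called; leaving out single samples thus gave 1 to 2 markers called. No marker changed sign in any of the 14 alternatives to the test, the normalization, the filter, the dispersion or the samples, and none of the other 7 was called in any of them. The adjusted p of Ly6a ranged from 3.98e-05 to 0.0729 and that of Prom1 from 0.00322 to 0.149. Procr and Aldh1a3 could not be fitted with the filter of 10 counts in every sample.

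The number of all expressed genes called, 189, was 50 with the quasi-likelihood test of edgeR (49 higher, 1 lower), 306 with DESeq2 (231 higher, 75 lower), 112 without a filter, 116 at an adjusted p below 0.05, and 72 to 323 when single samples were left out. With the quasi-likelihood test, Ly6c1 (adjusted p = 0.169), Cd74 (0.152), Smoc2 (0.213), Rspo1 (0.279) and Dcn (0.105) were not called. The median log2 fold change of the markers was -0.02 without replicate 3 of the comparison group. The causes of these shifts were not tested. No paired analysis was possible because the labels give the groups no shared replicate numbers, although the groups may share mice. Depth limits statements on Aldh1a1, which had 0 or 1 counts in every library. The standard errors of Procr, Aldh1a3 and Lgr5 were 1.055, 1.31 and 0.90 on the log2 scale.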
